A study of Arabidopsis thaliana with 8 samples.

Results

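One hour of simulated shade was compared with simulated sun in *Arabidopsis thaliana* plants of the wild-type ecotype Col, using leaf and shoot apex tissue. The comparison rests on 4 of the 8 libraries of the study: 2 of plants kept in sun, with a red to far-red ratio of 1.9, and 2 of plants moved to shade, with a ratio of 0.5, at the same photosynthetically active radiation. The other 4 libraries come from the same treatments after 4 hours. Plants were 2 weeks old and had grown on soil in sun and long days. Each library was made from 5 pooled plants without cotyledons, hypocotyls and roots, and treatment began 4 hours after lights on. No transgene or mutation was present in any of the groups. The authors call the 2 replicates of a group biological, but whether they were grown apart is not stated. The p-values therefore measure the spread between these pools, which may be partly technical. Of the 33602 genes in the deposited table, the 18537 genes with at least 1 CPM (read counts scaled to a common library size) in at least 2 of the 4 libraries were tested, and the other 15065 were not. The 4 libraries held 3532890 to 4680620 reads on genes, 1 read was worth 0.216 to 0.287 CPM, and at 10 CPM counting error alone gave a coefficient of variation of 14.7% to 17.0%.

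The label of the tissue was checked against marker genes. All 5 mesophyll markers were high in each library, with a summed level between 34202 and 40299 CPM, and they were led by *RBCS1A*, a small subunit of Rubisco. Of the 7 shoot apical meristem markers, 4 were tested, *STM* lay between 5.62 and 8.22 CPM, and *WUS* was at 0 in all 4 libraries. Root and flower markers summed to no more than 3.0 CPM in any library. No tested marker of mesophyll, meristem, epidermis, trichome, phloem, xylem or stomatal lineage passed the test between sun and shade. Individual libraries stood apart in some markers. Xylem markers summed to 78.5 CPM in shade replicate 1 and to 24.3 to 36.1 CPM in the other 3 libraries, and jasmonate output genes summed to 1415 CPM in sun replicate 1 and to 371 to 451 CPM in the others. Where a single library decided a call, the value without it is given.

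Plants read the presence of neighbours through phytochromes, which sense red relative to far-red light. Red light turns these receptors to their active form and far-red light turns them back. Active phytochrome restrains the PHYTOCHROME INTERACTING FACTORs (PIFs), bHLH proteins that bind the G-box and related E-box motifs, so that shade releases the PIFs and their targets, among them auxin synthesis genes. In seedlings and leaves the response is known for longer hypocotyls and petioles, and for atypical HLH proteins that hold it back.

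After 1 hour of shade, 194 genes had an adjusted p under 0.05 in limma on log2(CPM + 1), with Benjamini-Hochberg adjustment over all tested genes, which is 1.05% of the genes tested. Most calls were rises: 170 genes (0.917%) were higher and 24 genes (0.129%) were lower in shade. In simulated counts the same fit found falls less often than rises of equal size. At a log2 change of 1 it called 76% of rises and 52% of falls (50 genes each). At a log2 change of 2 it called 100% and 92%, so the numbers of rises and falls are not on an equal footing. At an adjusted p under 0.001 there were 61 higher and 2 lower genes (0.34% of the tested genes). At an unadjusted p under 0.05 the directions were closer in number, with 933 higher (5.03%) and 683 lower (3.68%). An unadjusted cutoff also lets through many unchanged genes in both directions, so these are not counts of changed genes. Across all tested genes the median log2 difference was -0.00 and 49.99% were above 0. For single genes, 2 libraries against 2 cannot reach an exact permutation p below 0.333, so the calls rest on the spread that limma shares between genes. With the 4 hour libraries added to the model, 97 genes passed (93 higher and 4 lower), and all 97 were among the 194.

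Higher genes had log2 differences between 0.59 and 4.42, with a median of 1.63, and 54 of them reached 2. Lower genes were milder: their median was -1.18, the largest fall was -2.61, and 2 of them reached a fall of 2. The higher genes were weakly expressed in sun, with a median of 10.4 CPM against 18.4 CPM over all tested genes, and reached 36.4 CPM in shade. The lower genes started from a median of 45.2 CPM in sun and lay at 19.7 CPM in shade. In all 194 genes both shade libraries lay on one side of both sun libraries, as did 19.6% of all tested genes in the upward and 18.6% in the downward direction. The 194 were chosen by a small p on the same values, so their separation and their levels in sun are descriptions. A gene nearly absent in sun can pass the minimum through shade alone, and 13 higher genes had at most 3 reads in each sun library. A called fall in turn needs reads in sun to fall from.

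**Figure D1:**
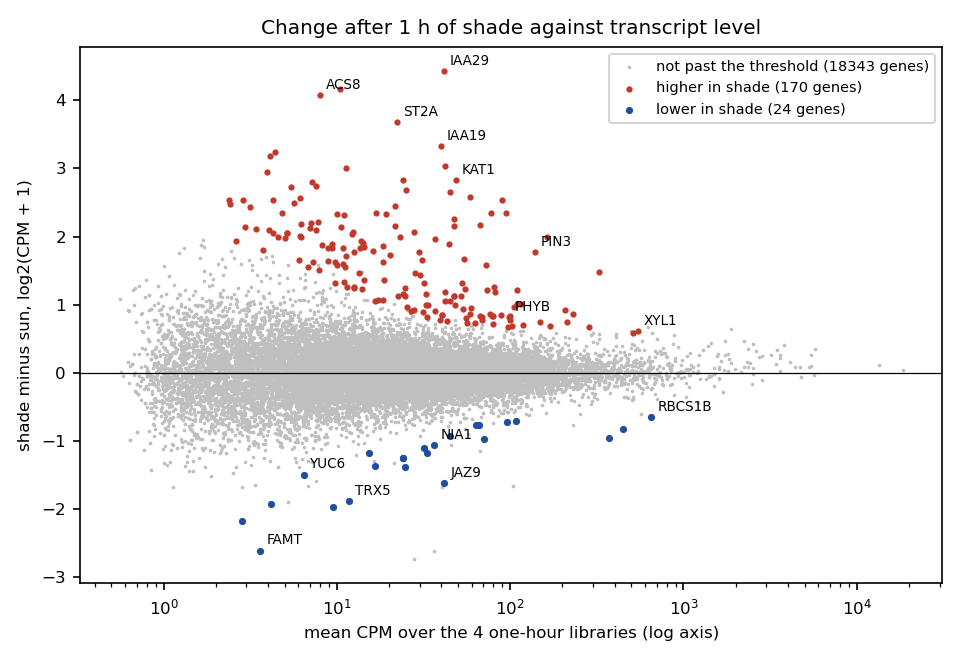
Each point is one of the 18537 tested genes, placed by its mean CPM over the 4 libraries (log axis) and its difference between shade and sun on the log2(CPM + 1) scale. Red marks the 170 genes that were higher in shade and blue the 24 that were lower, and the largest changes are upward and sit mostly below 100 CPM.

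The largest rise was in *IAA29* (AT4G32280, chr4:15583332-15584903), which codes for an Aux/IAA repressor of auxin signalling. It stood at 2.49 and 3.07 CPM in sun against 84.8 and 75.3 in shade, a log2 difference of 4.42 (SE 0.24, adjusted p = 8.52e-10). *AT3G21330*, a bHLH gene with little annotation, had 1 read in the 2 sun libraries together and 29.0 and 12.4 CPM in shade, a ratio of 166 with a 95% counting interval of 29.4 to 6592. Both shade libraries were well above both sun libraries, although the bHLH gene also differed between its own shade replicates.

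Among the 12 largest rises, *ACS8*, *YUC9* and *GLR2.6* had no read in either sun library. *ACS8*, an ACC synthase at the rate-limiting step of ethylene synthesis, reached 17.7 and 14.1 CPM and was at least 20.1-fold higher than in sun, a bound set by 3 reads in each sun library that covers counting error only. *YUC9*, a flavin monooxygenase of auxin synthesis, reached 11.2 and 6.32 CPM (at least 11.1-fold). *GLR2.6*, a glutamate receptor-like channel, reached 6.49 and 10.06 CPM (at least 10.4-fold). Their fitted log2 differences of 4.07, 3.24 and 3.19 depend on the pseudocount, and with all 8 libraries *GLR2.6* no longer passed (adjusted p = 0.0902).

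*ST2A*, a sulfotransferase that acts on 12-hydroxyjasmonate, had 2.49 and 2.23 CPM in sun against 41.3 and 42.8 in shade, a log2 difference of 3.68 (SE 0.28, adjusted p = 3.7e-08). Its neighbour on chromosome 5, *ST2B*, had 6.97 and 10.9 CPM in sun against 28.6 and 34.2 in shade, a difference of 1.73 (SE 0.26, adjusted p = 0.000482). In both genes the shade replicates lay close together and far above the sun replicates. *MAKR6*, of a family of membrane-associated kinase regulators, rose from 6.48 and 10.3 CPM to 89.98 and 60.9 CPM, by 3.03 (SE 0.24, adjusted p = 7.71e-08) on the log2 scale. *FLP1*, whose product resembles FLOWERING PROMOTING FACTOR proteins, had 1 read in the sun libraries together and 6.71 and 8.91 CPM in shade, a ratio of 58.1 (95% counting interval 10.06 to 2333).

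*KAT1*, a potassium channel that carries inward current in guard cells, stood at 10.96 and 11.4 CPM in sun against 85.2 and 86.2 in shade, a log2 difference of 2.83 (SE 0.19, adjusted p = 1.37e-08). The other 5 guard cell markers did not pass the test and had log2 differences between 0.03 and 0.53, while the summed level of the whole list was 52.8 and 49.7 CPM in sun against 135 and 138 CPM in shade, a gap held mostly by *KAT1*. *FAMA*, which sets guard cell fate, had 21.4 and 20.4 CPM in sun against 27.3 and 25.6 in shade, and *MYB60* had 8.97 and 8.65 CPM in sun against 12.5 and 13.8 in shade, both with shade libraries above sun libraries. In whole tissue, more cells of a type and more RNA per cell cannot be told apart.

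**Figure D2:**
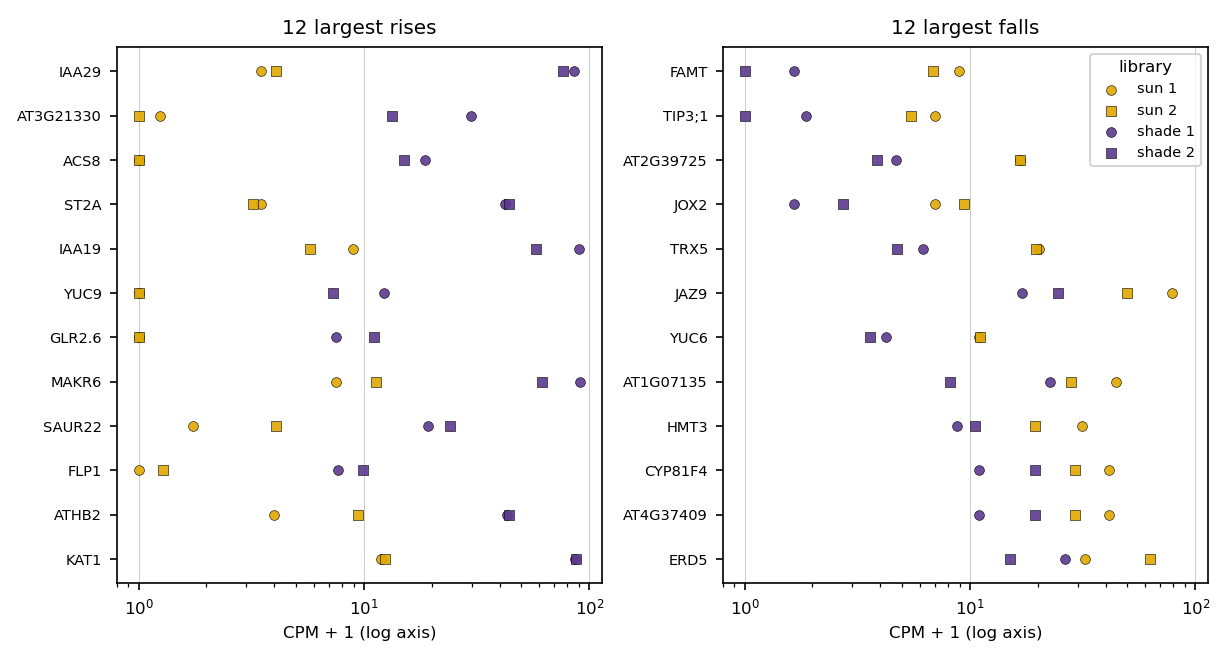
CPM + 1 (log axis) of the 12 largest rises (left) and the 12 largest falls (right) in each of the 2 sun libraries (yellow) and 2 shade libraries (purple), circles for replicate 1 and squares for replicate 2. The genes were picked from called genes whose sun and shade libraries do not overlap, and *ACS8*, *YUC9* and *GLR2.6* have no read in sun.

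The DNA before several of these genes holds the motifs to which shade-released PIFs and auxin response factors are known to bind. The stretches below were picked because they hold such matches, upstream of auxin and channel genes that rose and, for comparison, of a pair of jasmonate genes that fell. They were read 5′ to 3′ on the gene's strand from the RefSeq TAIR10.1 assembly, end before the annotated gene start, and have in capitals every match to CACGTG (the G-box), CACATG (the PBE-box, on either strand CACATG or CATGTG) and TGTCTC (an auxin response element, on the other strand GAGACA).
*IAA19* (chr3:5263801-5263946, + strand): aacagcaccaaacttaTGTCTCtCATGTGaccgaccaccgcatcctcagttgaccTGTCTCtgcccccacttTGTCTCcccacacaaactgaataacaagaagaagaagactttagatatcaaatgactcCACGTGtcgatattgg
*YUC8* (chr4:14192069-14192139, + strand): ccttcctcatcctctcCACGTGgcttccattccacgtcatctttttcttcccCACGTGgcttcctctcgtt
*YUC9* (chr1:1104403-1104453, + strand): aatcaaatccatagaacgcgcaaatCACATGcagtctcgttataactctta
*KAT1* (chr5:18747606-18747826, - strand): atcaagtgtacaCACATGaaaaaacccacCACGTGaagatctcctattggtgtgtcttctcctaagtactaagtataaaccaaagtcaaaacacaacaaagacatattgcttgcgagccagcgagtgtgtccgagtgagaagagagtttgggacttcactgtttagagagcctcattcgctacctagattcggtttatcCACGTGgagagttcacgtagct
*SAUR22* (chr5:5975177-5975219, - strand): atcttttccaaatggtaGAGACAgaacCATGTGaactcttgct
*JAZ9* (chr1:26654144-26654184, + strand): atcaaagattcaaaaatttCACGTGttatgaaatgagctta
*JOX2* (chr5:1671990-1672030, + strand): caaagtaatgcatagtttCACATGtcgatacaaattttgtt

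In the *IAA19* stretch, 3 matches to TGTCTC, 1 to the PBE-box and 1 to the G-box lie within 146 bases. The stretches of *YUC8* and *KAT1* each have 2 G-boxes, and that of *YUC9* has 1 PBE-box. A G-box stands before *JAZ9* and a PBE-box before *JOX2*, genes that changed the other way. *IAA29*, with the largest rise, has none of the 5 motifs searched in the 500 bases before its start, which says only that these letters are absent from that window.

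Over all genes with a complete 500-base window before the start, the PBE-box was present in 38.5% of 169 genes called higher and in 41.7% of 24 genes called lower, against 20.7% of 18462 tested genes. The G-box was in 13.6%, 12.5% and 10.3% of these sets. TGTCTC was in 26.6%, 29.2% and 21.5%, TGTCGG (a second auxin response element) in 12.4%, 12.5% and 8.54%, and AAAATATCT (the evening element of clock-regulated genes) in 7.1%, 8.33% and 4.53%. Both strands were searched, no motif of the 5 contains another, and the shares are descriptions without a test. The windows are not all independent. Similar *SAUR* copies count separately, and *SAUR22*, *SAUR28*, *AT1G29460*, *AT1G29500* and *AT5G18030* all hold the PBE-box. So do the genes of 2 overlapping pairs with identical reads count separately, and the 41.7% rests on 10 genes. Among the 61 higher genes past 0.001 the PBE-box share was 45.9%.

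**Figure D3:**
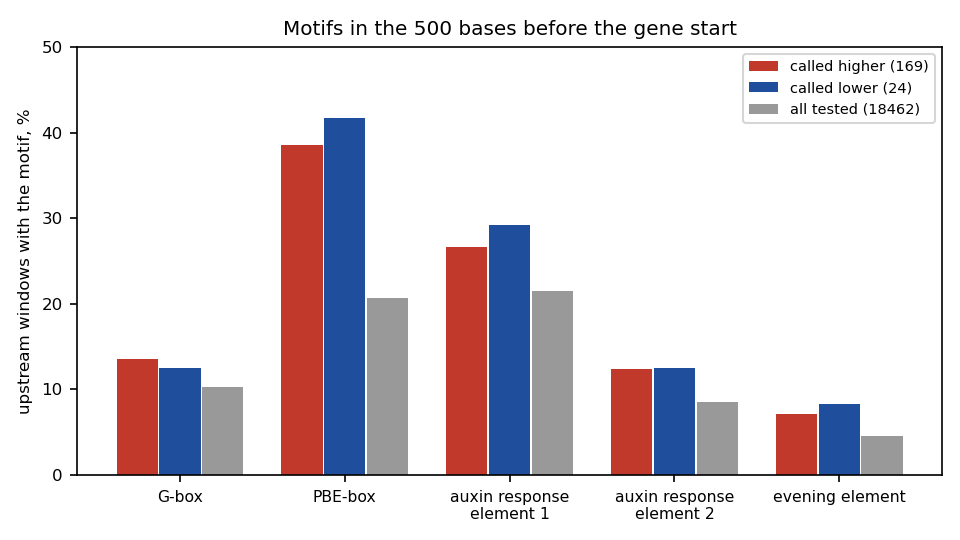
Share of 500-base windows before the gene start that hold each motif, in percent, for genes called higher in shade (169 windows, red), called lower (24, blue) and all tested genes (18462, grey). The PBE-box has the widest gap, at 38.5% and 41.7% against 20.7%, in windows that are not all independent.

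Regulators known from the shade response had a high share of calls. For this list and those below, the share over all tested genes was 1.05% called, 0.917% higher and 0.129% lower. Of the 10 HLH and HD-Zip genes listed, 6 were higher and none lower, with a list median of 1.66, and in all 10 both shade libraries exceeded both sun libraries (19.6% of all tested genes did so). Of the 6 calls, *ATHB2*, *HAT2* and *PIL2* remained with all 8 libraries. The list holds genes picked for their known response to shade, so its direction is a check of the treatment.

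*ATHB2*, an HD-Zip II protein long used as a shade marker, had 2.99 and 8.37 CPM in sun against 42.0 and 43.1 in shade, a log2 difference of 2.83 (SE 0.31, adjusted p = 1.12e-05). Its relative *HAT2* had 14.4 and 17.0 CPM in sun against 77.2 and 80.8 in shade, a difference of 2.26 (SE 0.19, adjusted p = 1.39e-07). *HAT1* rose less, from 9.46 and 11.4 CPM to 24.4 and 21.0 CPM (log2 difference 1.05, SE 0.25, adjusted p = 0.0421). *ATHB4* had 3.98 and 1.67 CPM in sun against 8.22 and 5.75 in shade (adjusted p = 0.332) and *HAT3* had 31.9 and 35.4 CPM in sun against 39.6 and 37.6 in shade (adjusted p = 0.835), so within the HD-Zip II family the size of the difference ran from 0.19 to 2.83. The size in *ATHB2* depended on the sun library, at 2.22 without sun replicate 1 and 3.45 without sun replicate 2, and the call of *HAT1* was lost without shade replicate 1 (adjusted p = 0.0864) or without sun replicate 1 (adjusted p = 0.252).

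*HFR1*, an atypical bHLH that binds PIFs and holds elongation back, had 1 read in the 2 sun libraries together and 6.27 and 4.89 CPM in shade, a ratio of 43.1 with a 95% counting interval of 7.37 to 1740.3 (adjusted p = 0.00325). *PIL1*, a second inhibitor of this kind, had 0.747 and 3.63 CPM in sun against 10.8 and 9.77 in shade (log2 difference 1.99, SE 0.42, adjusted p = 0.0163). Its sun replicates were several-fold apart, and without sun replicate 1 the log2 difference was 1.29 and the call was lost (adjusted p = 0.231), against 2.69 without sun replicate 2. *PAR1* and *PAR2*, HLH proteins that do not bind DNA, had 13.7 and 19.3 CPM in sun against 31.1 and 26.4 in shade and 3.24 and 4.47 CPM in sun against 10.6 and 11.8 in shade respectively, with adjusted p = 0.156 and 0.0551, so neither passed.

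Among the PIF genes themselves, *PIL2* was the one of 7 that passed, at 2.99 and 5.30 CPM in sun against 26.2 and 14.7 in shade (log2 difference 2.04, SE 0.34, adjusted p = 0.00147). The other 6, *PIF1*, *PIF3*, *PIF4*, *PIF5*, *PIF7* and *PIF8*, had log2 differences between -0.20 and 0.33. PIF activity is set largely at the protein, which these libraries do not measure.

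Of the 10 photoreceptor genes, *PHYB*, the main sensor of the red to far-red ratio, passed. It had 64.5 and 77.3 CPM in sun against 128 and 123 in shade, a difference of 0.82 (SE 0.15, adjusted p = 0.00565), a call lost without sun replicate 1 (adjusted p = 0.0985). *PHYA*, the far-red sensor, had 68.7 and 80.1 CPM in sun against 130.00 and 91.4 in shade (adjusted p = 0.208), and *PHOT1*, a blue light receptor of phototropism, had 271 and 209.9 CPM in sun against 399 and 318 in shade (adjusted p = 0.108). In all 3 the shade libraries lay above the sun libraries.

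The other photoreceptors did not pass, and their differences were small. The log2 difference was -0.03 in *PHYC*, -0.14 in *PHYD*, -0.16 in *PHYE*, 0.16 in *CRY1*, 0.08 in *CRY2*, -0.07 in *PHOT2* and 0.15 in *UVR8*, with standard errors of 0.14 to 0.23. Among 20 genes of light signalling, *PKS2*, a phytochrome kinase substrate, was the one call (33.4 and 30.4 CPM in sun against 58.8 and 50.3 in shade, log2 difference 0.75, SE 0.18, adjusted p = 0.0435), and it was lost with 8 libraries and without shade replicate 1 (adjusted p = 0.0991), without sun replicate 1 (adjusted p = 0.0854) or without sun replicate 2 (adjusted p = 0.244). *COL5*, a CONSTANS-like B-box gene, was the one call of 15 B-box genes (99.4 and 123 CPM in sun against 173 and 199 in shade, log2 difference 0.74, SE 0.15, adjusted p = 0.0127), and was lost with 8 libraries and without sun replicate 1 (adjusted p = 0.224). None of 24 clock genes passed, and their median was -0.05. The lowest p values among them belonged to *RVE6* (0.87, adjusted p = 0.433) and *CHE* (0.42, adjusted p = 0.457).

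Small HLH proteins of the PRE family promote cell elongation by binding inhibitory partners, and BEE proteins act in brassinosteroid responses. Of 12 such genes tested, 6 were higher, none lower, and the median was 1.13. *PRE6* had 25.4 and 36.0 CPM in sun against 152 and 164 in shade, a difference of 2.35 (SE 0.17, adjusted p = 3.7e-08). *PRE1* had 7.97 and 9.21 CPM in sun against 31.8 and 43.1 in shade (log2 difference 1.99, SE 0.24, adjusted p = 4.13e-05) and *BEE3* had 3.24 and 5.30 CPM in sun against 21.6 and 19.5 in shade (log2 difference 2.06, SE 0.30, adjusted p = 0.000444). *BEE1* had 3.74 and 6.98 CPM in sun against 31.1 and 14.7 in shade and *PRE2* 6.72 and 7.26 CPM in sun against 20.1 and 16.1 in shade, both weaker calls (adjusted p = 0.00466 and 0.025). Calls of *PRE6*, *PRE1* and *BEE3* remained with all 8 libraries, and those of *BEE1*, *PRE2* and *BIM1* did not. *BIM1*, a bHLH partner of the brassinosteroid factor BES1, had 72.2 and 78.1 CPM in sun against 111 and 129 in shade (log2 difference 0.67, SE 0.15, adjusted p = 0.0323). *BIM1* was also lost without shade replicate 2 (adjusted p = 0.109), without sun replicate 1 (adjusted p = 0.231) or without sun replicate 2 (adjusted p = 0.0564), and *PRE2* without shade replicate 1 (adjusted p = 0.0747) or without sun replicate 1 (adjusted p = 0.0923).

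Auxin genes made up a wide part of the response. Auxin drives growth by releasing ARF transcription factors from Aux/IAA repressors, which are themselves induced, as are the *SAUR* genes, whose products keep plasma membrane proton pumps active, and *GH3* genes, whose products conjugate auxin to amino acids. Among 8 tested genes of auxin synthesis, 2 were higher and 1 was lower. *YUC8* had 0.747 and 1.40 CPM in sun against 15.1 and 11.5 in shade, a difference of 2.80 (SE 0.37, adjusted p = 0.000153), beside the rise of *YUC9* given above. *YUC6*, a further member of the family, fell, from 9.96 and 10.05 CPM to 3.24 and 2.59 CPM, a difference of -1.50 (SE 0.34, adjusted p = 0.032). Its sun replicates agreed closely and its shade replicates did too, but the call was lost with all 8 libraries (adjusted p = 0.142) and without sun replicate 1 (adjusted p = 0.215) or without sun replicate 2 (adjusted p = 0.202). *TAA1*, the aminotransferase upstream of the YUCCA enzymes, had 15.9 and 19.3 CPM in sun against 11.7 and 7.47 in shade (adjusted p = 0.268).

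*PIN3*, an efflux carrier that can move auxin sideways in the stem, was the largest of the 4 rises among 15 transport genes, at 56.3 and 65.9 CPM in sun against 169 and 262 in shade (log2 difference 1.77, SE 0.18, adjusted p = 3.43e-06). *AUX1*, an influx carrier, had 76.7 and 75.6 CPM in sun against 162 and 147 in shade (log2 difference 1.01, SE 0.15, adjusted p = 0.000399), and *LAX2*, of the same family, had 21.4 and 21.5 CPM in sun against 42.6 and 44.5 in shade (log2 difference 0.99, SE 0.19, adjusted p = 0.00764). *PIN7* had 92.9 and 87.1 CPM in sun against 156 and 139 in shade (log2 difference 0.70, SE 0.15, adjusted p = 0.0159). Their relatives *PIN6*, *LAX1* and *LAX3* had log2 differences between -0.03 and 0.06. *LAX2* lost its call with all 8 libraries (adjusted p = 0.136) and *PIN7* lost it without sun replicate 2 (adjusted p = 0.113). *WAT1*, a vacuolar auxin carrier outside the list, was named after its values were seen, and rose by 0.93 (SE 0.16, adjusted p = 0.00178).

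Of 24 tested Aux/IAA genes, 10 rose, none fell, and the median was 0.78 against -0.00 over all genes. The family split: after *IAA29* came *IAA19* (7.97 and 4.74 CPM in sun against 88.9 and 56.9 in shade, log2 difference 3.33, SE 0.26, adjusted p = 5.54e-08), *IAA2* (24.7 and 25.1 CPM in sun against 142 and 119.8 in shade, log2 difference 2.34, SE 0.17, adjusted p = 2.24e-08), *IAA1* (9.96 and 5.02 CPM in sun against 41.3 and 30.2 in shade, log2 difference 2.16, SE 0.28, adjusted p = 0.000127) and *IAA3* (27.9 and 23.2 CPM in sun against 75.7 and 90.2 in shade, log2 difference 1.66, SE 0.18, adjusted p = 8.56e-06). At the other end, *IAA28*, *IAA26*, *IAA27*, *IAA10*, *IAA18* and *IAA12* had log2 differences between -0.72 and -0.02 and none passed. With 8 libraries 7 of the 10 calls remained. None of 21 genes for ARF factors and TIR1/AFB receptors passed. *AFB1* was the closest among those that were higher (27.6 and 44.4 CPM in sun against 65.8 and 55.5 in shade, adjusted p = 0.0918), and *ARF17* had 17.7 and 13.1 CPM in sun against 9.73 and 6.32 in shade (adjusted p = 0.287).

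The *SAUR* family gave the largest number of calls. Of its 78 genes, 48 were tested, 19 rose, none fell, and the median was 0.75. *SAUR22* had 0.747 and 3.07 CPM in sun against 18.17 and 23.0 in shade (log2 difference 3.01, SE 0.38, adjusted p = 7.32e-05), *AT1G29460* 1.74 and 0.837 CPM in sun against 13.8 and 14.1 in shade (log2 difference 2.74, SE 0.37, adjusted p = 0.000153), *AT5G18030* 3.74 and 6.14 CPM in sun against 28.3 and 29.0 in shade (log2 difference 2.35, SE 0.28, adjusted p = 3.57e-05) and *AT1G29500* 3.49 and 3.07 CPM in sun against 17.1 and 18.7 in shade (log2 difference 2.14, SE 0.31, adjusted p = 0.000345). *SAUR28* had 5 reads in the sun libraries together and 7.57 and 12.9 CPM in shade. The fitted size in *SAUR22* moved to 2.40 without sun replicate 1 and to 3.62 without sun replicate 2, past the threshold in both. Of the 19 genes, 15 lie in 3 clusters of similar copies on chromosomes 1, 3 and 5, and the other 4 lie on chromosome 4. Reads of 40 bases can be split between such near-identical copies, so the share of each copy is uncertain. With 8 libraries 11 of the 19 calls remained.

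Of 10 *GH3* genes 3 rose and none fell. *WES1* had 15.2 and 18.1 CPM in sun against 89.8 and 67.0 in shade (log2 difference 2.16, SE 0.20, adjusted p = 7.75e-07), *GH3.3* 11.7 and 17.0 CPM in sun against 70.1 and 47.7 in shade (log2 difference 1.96, SE 0.23, adjusted p = 2.46e-05) and *DFL1* 44.3 and 54.1 CPM in sun against 126 and 101 in shade (log2 difference 1.19, SE 0.17, adjusted p = 0.000309). All 3 calls remained with all 8 libraries.

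**Figure D4:**
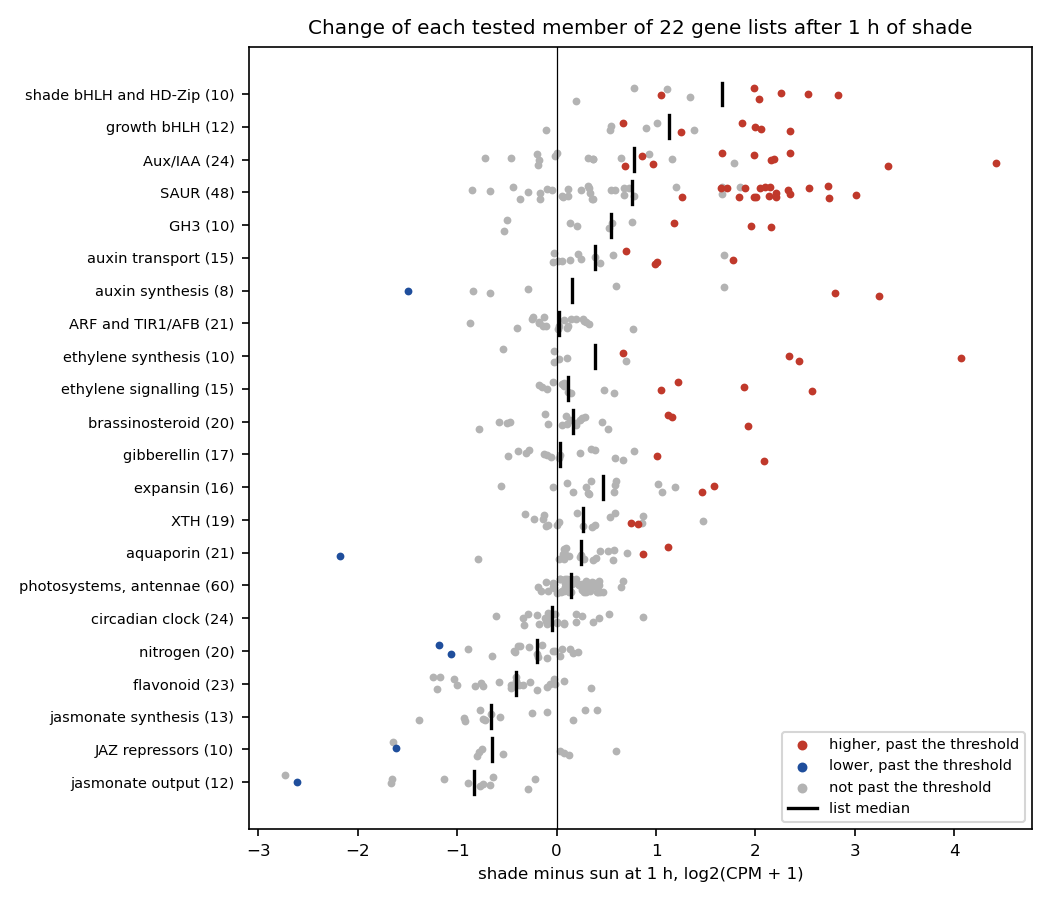
Difference between shade and sun at 1 h on the log2(CPM + 1) scale for each tested member of 22 gene lists (number tested in brackets). Red and blue points are genes called higher and lower, grey points are genes not called, and black bars are list medians, which run from 1.66 in the shade regulators to -0.83 in jasmonate output.

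Genes for ACC synthases were among the ethylene synthesis genes that rose. Of 10 tested genes, 4 were higher and none lower. *ACS5* had 2 reads in the sun libraries together and 4.33 and 7.76 CPM in shade, a ratio of 22.04 with a 95% counting interval of 5.77 to 187. *ACS4* had 0.498 and 1.40 CPM in sun against 7.14 and 10.3 in shade (log2 difference 2.34, SE 0.41, adjusted p = 0.00289). The call of *ACS4* was lost with 8 libraries (adjusted p = 0.064).

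On the side of perception, 4 of 15 genes were higher. *ERS1* and *ERS2*, ethylene receptors that repress signalling, had 21.7 and 32.9 CPM in sun against 59.1 and 53.7 in shade and 7.47 and 8.09 CPM in sun against 24.4 and 15.5 in shade, with log2 differences of 1.05 (SE 0.20, adjusted p = 0.00695) and 1.22 (SE 0.28, adjusted p = 0.0333). *ARGOS* and *ARL*, which lower ethylene sensitivity and affect organ size, had 0.747 and 1.40 CPM in sun against 13.0 and 9.48 in shade (log2 difference 2.56, SE 0.38, adjusted p = 0.00051) and 2.74 and 2.23 CPM in sun against 21.4 and 6.32 in shade (log2 difference 1.88, SE 0.42, adjusted p = 0.0282). The 2 shade libraries of *ARL* differed by more than 3-fold, and its log2 difference was 1.07 without shade replicate 1, where the call was lost (adjusted p = 0.261), and 2.69 without shade replicate 2. *ERS1* was lost without sun replicate 1 (adjusted p = 0.146), and *ERS2* without shade replicate 1 (adjusted p = 0.166) or without sun replicate 1 (adjusted p = 0.0862). With 8 libraries *ARGOS* alone kept its call.

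Gibberellin and brassinosteroid genes gave few calls. *GA20OX2*, an enzyme of gibberellin synthesis, had 0.747 and 1.12 CPM in sun against 6.92 and 7.47 in shade (log2 difference 2.09, SE 0.40, adjusted p = 0.00649), and *GAI*, a DELLA repressor that gibberellin removes, had 75.7 and 69.2 CPM in sun against 154 and 140.3 in shade (log2 difference 1.01, SE 0.15, adjusted p = 0.000444). These were the 2 calls of 17 genes, whose median was 0.03, and *GA20OX2* did not pass with 8 libraries. Of 20 brassinosteroid genes, *BAS1*, a P450 that inactivates the hormone, had 3.98 and 6.42 CPM in sun against 25.1 and 19.5 in shade (log2 difference 1.93, SE 0.30, adjusted p = 0.000735), and *BR6OX2*, which makes brassinolide precursors, had 14.7 and 15.9 CPM in sun against 35.04 and 33.9 in shade (log2 difference 1.12, SE 0.21, adjusted p = 0.00605). A signalling kinase, *BSK5*, had 17.9 and 22.05 CPM in sun against 45.2 and 46.0 in shade (log2 difference 1.16, SE 0.20, adjusted p = 0.00222). *BAS1* did not pass with 8 libraries either (adjusted p = 0.0946).

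Cytokinin, abscisic acid and salicylic acid lists changed little. *CKX6*, a cytokinin oxidase, was the one call of 18 cytokinin genes (22.4 and 21.8 CPM in sun against 43.9 and 45.7 in shade, log2 difference 0.99, SE 0.19, adjusted p = 0.00704), and its model overlaps *AT3G63445* on the other strand. None of 19 abscisic acid genes passed, with *NCED3* of abscisic acid synthesis at 1.74 and 0 CPM in sun against 3.03 and 4.02 in shade (adjusted p = 0.306) and *RD22* at 0.42 on the log2 scale (adjusted p = 0.337). None of 11 genes of salicylic acid defence passed, and *PBS3* and *EDS5* had differences of 0.56 and 0.24 (adjusted p = 0.816 and 0.864).

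Genes for wall loosening and for water and ion movement rose in small numbers, and many more leaned upward. Expansins loosen walls at low pH, and *EXPA8* had 31.6 and 39.6 CPM in sun against 93.4 and 126 in shade (log2 difference 1.59, SE 0.18, adjusted p = 1.65e-05) and *EXLA2* 6.97 and 6.42 CPM in sun against 19.9 and 20.4 in shade (log2 difference 1.46, SE 0.27, adjusted p = 0.00497), the 2 calls of 16. The call of *EXLA2* was lost with all 8 libraries (adjusted p = 0.156). In 9 of these 16 both shade libraries exceeded both sun libraries (19.6% of all tested genes did). Of 19 xyloglucan endotransglucosylase genes, *XTH4* (143 and 174 CPM in sun against 229.7 and 305 in shade, log2 difference 0.74, SE 0.16, adjusted p = 0.0177) and *XTH8* (24.9 and 22.6 CPM in sun against 38.5 and 47.1 in shade, log2 difference 0.82, SE 0.20, adjusted p = 0.0446) passed, and both were lost with 8 libraries. *XTH4* was also lost without shade replicate 2 (adjusted p = 0.0694) or without sun replicate 1 (adjusted p = 0.199), and *XTH8* when any of 3 libraries was left out (adjusted p = 0.192 without shade replicate 2 and up to 0.218 otherwise). *CSLC4*, which makes the xyloglucan backbone, had 46.8 and 49.4 CPM in sun against 84.4 and 88.8 in shade (log2 difference 0.83, SE 0.16, adjusted p = 0.0063), and *XYL1*, which trims xylose from it, had 433 and 427 CPM in sun against 667 and 647 in shade (log2 difference 0.61, SE 0.14, adjusted p = 0.0339). The call of *XYL1* was lost without sun replicate 1 (adjusted p = 0.224) or without sun replicate 2 (adjusted p = 0.254).

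Pectin genes gave 4 calls of 79 tested (5.06%, against 1.05% of all tested genes), all higher. *AT4G25260*, a pectin methylesterase inhibitor whose model overlaps *AT4G25270*, had 21.9 and 25.7 CPM in sun against 110.1 and 109.8 in shade (log2 difference 2.17, SE 0.17, adjusted p = 6.19e-08). *AT5G48900*, a pectin lyase-like gene, had 32.6 and 31.5 CPM in sun against 87.6 and 67.5 in shade (log2 difference 1.24, SE 0.18, adjusted p = 0.000345), and the methylesterase *PME61* had 20.2 and 10.05 CPM in sun against 32.7 and 33.3 in shade (log2 difference 1.15, SE 0.26, adjusted p = 0.0294). *AT1G62770*, a further inhibitor, had 5 reads in the sun libraries together and 6.06 and 6.32 CPM in shade. The call of *PME61* was lost without sun replicate 2 (adjusted p = 0.49), and with all 8 libraries those of *PME61* (adjusted p = 0.152) and *AT1G62770* (adjusted p = 0.194) were lost. Of 28 arabinogalactan protein genes 2 rose, *FLA9* (41.6 and 46.3 CPM in sun against 92.6 and 114 in shade, log2 difference 1.21, SE 0.17, adjusted p = 0.000199) and *AGP4* (38.9 and 24.6 CPM in sun against 51.9 and 75.6 in shade, log2 difference 1.00, SE 0.22, adjusted p = 0.0209), the latter lost without shade replicate 2 (adjusted p = 0.067) or without sun replicate 2 (adjusted p = 0.224).

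Aquaporins mostly leaned upward, with 19 of 21 listed genes above 0 and a median of 0.25. In 12 of them both shade libraries exceeded both sun libraries (57.1% against 19.6% of all tested genes). The calls were 2 rises and 1 fall. *TIP2;2* of the vacuole membrane had 15.2 and 12.6 CPM in sun against 30.1 and 32.5 in shade (log2 difference 1.12, SE 0.22, adjusted p = 0.00971) and *PIP2E* of the plasma membrane had 142 and 179 CPM in sun against 239 and 356 in shade (log2 difference 0.87, SE 0.17, adjusted p = 0.00971). Their calls were lost without sun replicate 2 (adjusted p = 0.0581) and without sun replicate 1 (adjusted p = 0.0628) respectively. *DELTA-TIP*, an abundant tonoplast aquaporin outside the list, had 403 and 410.3 CPM in sun against 589 and 635 in shade, the smallest rise among all calls (log2 difference 0.59, SE 0.14, adjusted p = 0.0476), and it was lost under 10 of the 15 alternatives, without shade replicate 2 (adjusted p = 0.0676), without sun replicate 1 (adjusted p = 0.326) or without sun replicate 2 (adjusted p = 0.247) among them. *TIP3;1*, an aquaporin of seed storage vacuoles, had 5.98 and 4.47 CPM in sun against 0.865 and 0 in shade (log2 difference -2.18, SE 0.46, adjusted p = 0.0163). It overlaps *AT1G73200*, and its call was lost with 8 libraries (adjusted p = 0.0664) and without sun replicate 1 (adjusted p = 0.209). *KAT1* was the one call among 15 channel and proton pump genes.

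Further rises fell in other families. Protein phosphatases of the PP2C family, among them members that SAUR proteins inhibit at the plasma membrane, gave 3 calls of 49 tested, all higher. That is 6.12% of the list, against 1.05% of all tested genes. *AT5G02760* had 27.1 and 24.3 CPM in sun against 156 and 151 in shade (log2 difference 2.54, SE 0.16, adjusted p = 6.63e-09), *AT5G66080* 2.49 and 3.63 CPM in sun against 17.3 and 20.7 in shade (log2 difference 2.31, SE 0.32, adjusted p = 0.000199) and *AT3G05640* 11.7 and 17.0 CPM in sun against 32.4 and 37.1 in shade (log2 difference 1.24, SE 0.23, adjusted p = 0.00515). *AT5G02760* overlaps *AT5G02770*, and since the use of strand in counting is not stated their reads may not be told apart. *AT3G05640* overlaps *AT3G05630* and was lost without sun replicate 1 (adjusted p = 0.0576). Of 24 ROTUNDIFOLIA-like genes, small peptides that shorten organs when overexpressed, 8 were tested and 2 rose, *RTFL16* (19.4 and 17.0 CPM in sun against 61.9 and 79.0 in shade, log2 difference 1.89, SE 0.19, adjusted p = 3.69e-06) and *RTFL17* (21.7 and 29.0 CPM in sun against 55.2 and 61.8 in shade, log2 difference 1.19, SE 0.19, adjusted p = 0.00129).

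Of 22 cold and desaturase genes, 2 rose, *COR413IM1* of the chloroplast inner envelope (21.7 and 14.5 CPM in sun against 45.9 and 45.7 in shade, log2 difference 1.32, SE 0.21, adjusted p = 0.00133) and *RCI2B*, a small membrane protein (3.98 and 3.63 CPM in sun against 14.3 and 13.8 in shade, log2 difference 1.65, SE 0.31, adjusted p = 0.0063). Of 43 ERF and DREB genes 3 were called, *ESE3* (3.24 and 5.02 CPM in sun against 21.6 and 13.2 in shade, log2 difference 1.83, SE 0.33, adjusted p = 0.00367), *SHN2* (2.24 and 3.91 CPM in sun against 9.08 and 14.1 in shade, log2 difference 1.63, SE 0.36, adjusted p = 0.0229) and *AT1G75490* (1.74 and 0.558 CPM in sun against 5.19 and 7.47 in shade, log2 difference 1.81, SE 0.43, adjusted p = 0.0387), and none of them with 8 libraries. *SHN2* was lost without shade replicate 2 (adjusted p = 0.133) or without sun replicate 1 (adjusted p = 0.162), and *AT1G75490* without shade replicate 2 (adjusted p = 0.142) or without sun replicate 2 (adjusted p = 0.312). *SHN2*, a regulator of cuticle lipids, lies next to *GLR2.6*. Of 299 ribosomal protein genes 3 were called, a share of 1.00% beside 1.05% over all genes. They were *AT5G39850* (1.56) and the overlapping pair *AT1G29965* (0.84) and *RPL18AA* (0.78), whose reads cannot be told apart, and all 3 were lost with 8 libraries. Leaving out one library ended the call of *AT5G39850* without shade replicate 2 (adjusted p = 0.0743) or without sun replicate 2 (adjusted p = 0.355), and that of *RPL18AA* without shade replicate 2 (adjusted p = 0.106). Of all 170 higher genes, 22 had products without a known function (12.9%, against 12.4% of all tested genes).

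Fewer falling genes were called, and a smaller number kept their call in the larger model. Of the 24, *TRX5*, *DOT1*, *AT4G22485* and *AT1G62500* kept their call with all 8 libraries. *TRX5*, an h-type thioredoxin, had 19.2 and 18.7 CPM in sun against 5.19 and 3.74 in shade, a difference of -1.88 (SE 0.30, adjusted p = 0.000994), and with *JAZ9* it was one of the 2 falls past 0.001. *DOT1*, a glycine-rich protein needed for leaf vein patterning, had 43.3 and 43.8 CPM in sun against 22.7 and 17.2 in shade (log2 difference -1.10, SE 0.20, adjusted p = 0.00492). *AT4G22485* and the nearby *AT4G22505*, which code for lipid transfer-like proteins, had 469 and 505 CPM in sun against 215 and 289 in shade (log2 difference -0.96, SE 0.15, adjusted p = 0.00114) and 619 and 517 CPM in sun against 286 and 359 in shade (log2 difference -0.82, SE 0.15, adjusted p = 0.00556), and were among the 5 called genes with the highest levels. Each overlaps another model, and *AT4G22505* was lost without sun replicate 1 (adjusted p = 0.0829). *AT1G62500*, of the same kind and named after its values were seen, fell by 0.93 (SE 0.18, adjusted p = 0.0063) on the log2 scale.

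Jasmonate, the hormone of wounding and defence against insects, acts by having JAZ repressors degraded, which frees transcription factors such as MYC2, and JAZ genes are themselves induced by it. *JAZ9* was the one call among 10 tested JAZ genes, at 78.0 and 48.8 CPM in sun against 16.0 and 23.6 in shade, a difference of -1.62 (SE 0.23, adjusted p = 0.000284). *FAMT*, a methyltransferase gene responsive to jasmonate, had 7.97 and 5.86 CPM in sun and 3 reads in the shade libraries together, so that sun exceeded shade by a ratio of 18.8 (95% counting interval 6.11 to 94.3). *JOX2*, which hydroxylates and so inactivates jasmonate, had 5.98 and 8.37 CPM in sun against 0.649 and 1.72 in shade (log2 difference -1.93, SE 0.41, adjusted p = 0.0186), and its call was lost without sun replicate 2 (adjusted p = 0.24). All 3 had both shade libraries below both sun libraries, and the calls of *JAZ9* and *FAMT* held with any single library left out.

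These 3 falls were not called with all 8 libraries, where the adjusted p was 0.603 for *JAZ9*, 0.611 for *FAMT* and 0.768 for *JOX2*. Levels of jasmonate output genes differed widely between the sun replicates. Of 12 jasmonate output genes all 12 had negative log2 differences, with a median of -0.83, and 6 had both shade libraries below both sun libraries (18.6% of all tested genes did). In 10 of the 12 sun replicate 1 exceeded sun replicate 2, as it did in 50.2% of all tested genes. Without sun replicate 1 the median was -0.37 and 8 of 12 were below 0, and without sun replicate 2 it was -1.73. *VSP1*, a vegetative storage protein gene named after its values were seen, had 97.4 and 6.98 CPM in sun against 6.27 and 1.44 in shade, the most negative difference of any tested gene (log2 difference -2.73, SE 0.68, adjusted p = 0.0609), and missed the threshold. The level in sun replicate 1 stood far above the other 3 libraries, and it did so too in 2 genes named after their values were seen, *VSP2* (349.9 and 17.3 CPM in sun against 29.6 and 20.1 in shade) and *LOX2* (464 and 151 CPM in sun against 147 and 163 in shade).

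Jasmonate synthesis leaned the same way without a call: the median of 13 genes was -0.66, and 10 of them were below 0, but without sun replicate 1 it was -0.11 with 8 below 0. *OPR3*, which makes the jasmonate precursor in peroxisomes, had 52.3 and 46.1 CPM in sun against 30.5 and 31.0 in shade (adjusted p = 0.116), and *AOC1* had 8.22 and 5.86 CPM in sun against 2.81 and 1.44 in shade (adjusted p = 0.13). Of 18 wound and touch genes none passed, with *ORA47* at 14.2 and 3.91 CPM in sun against 1.51 and 1.15 in shade (adjusted p = 0.0512) and *ERF104* at 12.7 and 11.4 CPM in sun against 5.62 and 5.17 in shade (adjusted p = 0.161). In both genes the shade libraries were the lower ones. Within the jasmonate inactivation list (5 genes tested) the direction differed by gene, with *ST2A* and *ST2B* higher and *JOX2* lower. The annotation of *ST2B* names a sulfotransferase without its substrate.

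Nitrogen genes held 2 falls of 20 tested, and none rose. *NIA1*, a nitrate reductase, had 37.1 and 62.8 CPM in sun against 21.8 and 23.6 in shade (log2 difference -1.06, SE 0.22, adjusted p = 0.0155), and *ERD5*, the proline dehydrogenase of mitochondria, had 31.4 and 62.2 CPM in sun against 25.3 and 14.1 in shade (log2 difference -1.18, SE 0.28, adjusted p = 0.037). Both calls turned on sun replicate 2, without which the adjusted p was 0.51 and 0.572. *HMT3*, which makes methionine from homocysteine, had 30.4 and 18.4 CPM in sun against 7.79 and 9.48 in shade (log2 difference -1.36, SE 0.28, adjusted p = 0.0116), and it was lost without sun replicate 1 (adjusted p = 0.378). *CYP81F4*, a P450 of indole glucosinolate modification and the one call among 23 glucosinolate genes, had 40.3 and 28.2 CPM in sun against 9.95 and 18.4 in shade (log2 difference -1.25, SE 0.26, adjusted p = 0.0163), and was lost without sun replicate 1 (adjusted p = 0.179). The overlapping *AT4G37409* carries exactly the same reads and is not a second result.

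The fall of *AT2G39725*, an LYR-motif gene, from 15.7 and 15.6 CPM to 3.68 and 2.87 CPM (log2 difference -1.97, SE 0.32, adjusted p = 0.0012), is uncertain because its model overlaps *RCA*, Rubisco activase, at 3337 to 3934 CPM. *AT1G07135*, a glycine-rich protein gene, had 43.6 and 27.1 CPM in sun against 21.6 and 7.18 in shade (log2 difference -1.38, SE 0.33, adjusted p = 0.0491) and was lost under 10 of the 15 alternatives, without shade replicate 2 (adjusted p = 0.222) or without sun replicate 1 (adjusted p = 0.159) among them, while without shade replicate 1 the difference was -2.11. *RBCS1B*, one copy of the Rubisco small subunit, had 828 and 767 CPM in sun against 464 and 551 in shade (log2 difference -0.66, SE 0.15, adjusted p = 0.0305), the smallest fall, lost without shade replicate 1 (adjusted p = 0.0547), without sun replicate 1 (adjusted p = 0.266) or without sun replicate 2 (adjusted p = 0.0727), while *RBCS1A* had a difference of 0.03. The copies of this gene family are similar, so reads can be split between them.

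The remaining falls, named after their values were seen, were *AT3G21100*, *SIP2*, *NRPA1*, *AT2G29670*, *FIB2* and *CIA2*, with log2 differences between -1.18 and -0.71. *NRPA1*, the largest subunit of RNA polymerase I, fell by 0.77 (SE 0.16, adjusted p = 0.0157) and *FIB2*, a fibrillarin of ribosomal RNA processing, by 0.72 (SE 0.16, adjusted p = 0.0262). *CIA2*, a regulator of chloroplast protein import genes, fell by 0.71 (SE 0.15, adjusted p = 0.02), and *SIP2*, a raffinose-hydrolysing enzyme, by 0.97 (SE 0.18, adjusted p = 0.00515). Further falling genes, of unknown function or, in *PMI15*, named for plastid movement, did not pass. *AT5G63340* had 4.23 and 5.30 CPM in sun against 1.51 and 0.287 in shade, *PMI15* 55.04 and 43.8 CPM in sun against 32.4 and 27.3 in shade, *AT1G16630* 42.6 and 42.7 CPM in sun against 28.3 and 22.4 in shade and *AT3G22968* 76.5 and 92.7 CPM in sun against 55.2 and 56.3 in shade, with adjusted p between 0.0915 and 0.116.

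Other processes leaned one way without a call. Of 23 flavonoid genes 21 were below 0 and 12 had both shade libraries below both sun libraries (52.2% against 18.6% over all tested genes), with a median of -0.41. Without sun replicate 1, which exceeded sun replicate 2 in 19 of these 23 genes, the median was -0.17. *FLS1*, flavonol synthase, had 31.6 and 31.3 CPM in sun against 20.1 and 16.4 in shade (adjusted p = 0.126), and *PAL1*, at the entry to the pathway, had 69.5 and 77.3 CPM in sun against 49.3 and 57.5 in shade (adjusted p = 0.34). Photosystem and antenna genes leaned upward by little: 52 of 60 were above 0, 31 had shade libraries above sun (51.7% against 19.6%), and the median was 0.15. Without shade replicate 2 the median was 0.25, and without shade replicate 1 it was 0.13, with 19 of 60 below 0 and 3 genes past the threshold. *PSBTN* and *PSAE-2* had the lowest p values there, with differences of 0.64 and 0.41 (adjusted p = 0.212 and 0.336).

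Chlorophyll, carotenoid, sugar, cell cycle, flowering and heat genes had no call. In tetrapyrrole synthesis *HEMB1* had 0.22 and *HEMA1* -0.27 on the log2 scale (adjusted p = 0.712 and 0.659), in carotenoid synthesis *ZDS* and *LUT2* both had 0.24 (adjusted p = 0.711 and 0.753). For starch and sugar, *BAM9* had 0.83 and *BAM3* -0.27, and among starvation markers *EXL1* had 1.27 and *TPS11* 0.58, with adjusted p between 0.19 and 0.634 over the 4. *KRP1*, a cell cycle inhibitor, and *PCNA1*, of DNA replication, had -0.82 and -0.50 (adjusted p = 0.153 and 0.343). *SPL3* and *SNZ*, of flowering time, had 0.66 and -0.46 (adjusted p = 0.514 and 0.521), and the heat genes *DREB2A* and *HSFA7A* had -1.31 and -1.45 (adjusted p = 0.332 and 0.327). Of the 51 process lists 17 held no call, and the genes encoded in plastids and mitochondria are all listed at 0 in the 4 libraries, so nothing can be read from them. The lists together covered 106 of the 194 calls.

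Called genes often lay next to each other. Among the 193 called genes on the 5 chromosomes, 28.0% had a called gene as their nearest tested neighbour on one side or the other, against 2.03% of all tested genes. Of the 30 such pairs, all changed in the same direction. Since 170 of the 194 called genes rose, most pairs of called genes would share a direction anyway. In 6 pairs the gene models overlap, so that reads may be shared, and 2 of these had identical reads in every library. In the other 24 pairs the models are apart, by a median of 1740 bp, and all 24 rose. Of these, 9 are pairs of neighbouring *SAUR* genes. The share of 28.0% includes the overlapping and the *SAUR* pairs.

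Of the 15 other pairs, some joined genes of one family, such as *ST2B* and *ST2A*, and others joined unrelated genes. The pairs below were picked after their values were seen. *HFR1* and *AT1G02350* lie 1937 bp apart and diverge, with log2 differences of 2.53 and 2.12. *PIL2* and *IAA30* diverge over 4976 bp (2.04 and 1.99), *GLR2.6* and *SHN2* over 3248 bp (3.19 and 1.63), and *GAI* and *AT1G14910*, an endocytosis adaptor, over 5246 bp (1.01 and 1.06). *IAA29* precedes *AT4G32285* by 539 bp on the same strand, and the 2 differed in size (4.42 and 0.83).

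**Figure D5:**
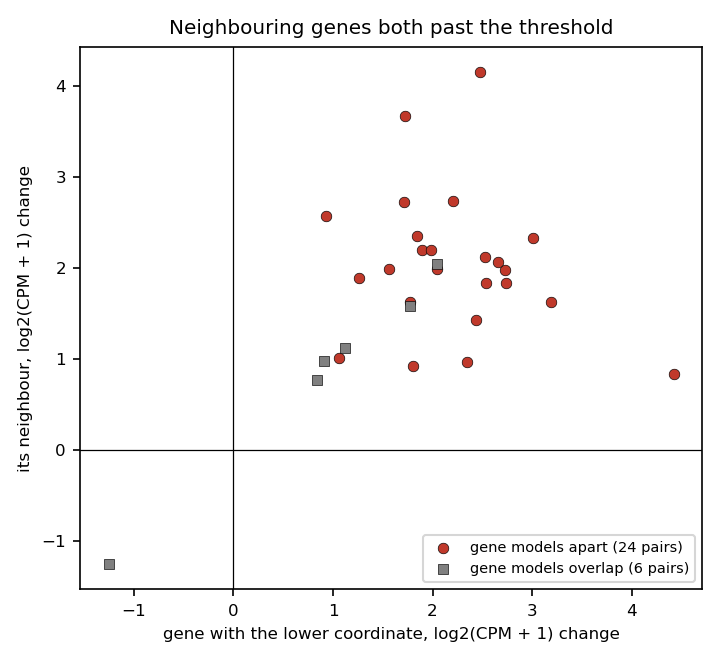
Log2(CPM + 1) differences of the 2 members of each pair of nearest tested neighbours that both passed the test, with red circles for 24 pairs whose models are apart and grey squares for 6 pairs whose models overlap. All 30 pairs lie in the quadrants of equal direction, and all pairs with models apart rose.

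At 4 hours the genes called at 1 hour mostly kept their sign with smaller differences. Of the 170 higher genes, 149 were also above 0 at 4 hours, with a median log2 difference of 0.60 there against 1.63 at 1 hour, and 13 passed at 4 hours. Of the 24 lower genes 15 were below 0 at 4 hours (median -0.21) and none passed (limma, 8 libraries). These genes were chosen by their 1 hour values, so the smaller 4 hour values are a description. Shade replicate 1 at 4 hours held 1154019 reads, and its counting error at 10 CPM was 29.3%, which limits what can pass there. Whether depth accounts for the smaller number of calls was not tested. A difference between the 1 hour and 4 hour responses passed the test in 2 genes of all tested (0.0108%). *KAT1* had 17.42 and 15.2 CPM in sun against 22.3 and 17.44 CPM in shade at 4 hours, a change of -2.57 (SE 0.29, adjusted p = 0.0101) in the shade response from 1 hour to 4 hours. *DOT1* had 9.48 and 8.31 CPM in sun against 20.6 and 23.8 CPM in shade at 4 hours, where shade was the higher group but did not pass (adjusted p = 0.0515), a change of 2.33 (SE 0.31, adjusted p = 0.0356). The first gene lost this call when any of 6 single libraries was left out (adjusted p up to 0.371), and so did the second (up to 0.499).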

How the data were processed

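Leaf and shoot apex tissue of *Arabidopsis thaliana* Col was sequenced as single-end reads of 40 bases. The authors aligned the reads with TopHat to TAIR10 and used edgeR, and the deposited table holds library-scaled read counts (CPM) for each gene and library. Versions, the counting program and the scaling are not given in the sources used here. All deposited CPM values (100%) came out as whole reads within a tolerance of 0.001 reads, so reads and depth could be recovered. The smallest 4 hour library held 1154019 reads.

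The 4 libraries at 1 hour were compared with limma 3.58.1 (R 4.3.3, eBayes with a trend) on log2(CPM + 1), and genes with at least 1 CPM in at least 2 of them were tested. A log2 difference on this scale understates the change of low genes. All p-values are two-sided, and adjusted p-values, by Benjamini-Hochberg over 18537 genes, are from limma unless another tool is named. The fit had 2 residual degrees of freedom, with 18.4 prior degrees of freedom shared between genes. Values are CPM per library in the order replicate 1 and replicate 2. A fold of a group without reads used a floor of 3 reads per library (0.649 to 0.862 CPM), and ratios to a group with 1 to 3 reads have exact 95% intervals that cover counting error only. Reads were tested as alternatives with edgeR 4.0.16 and DESeq2 1.42.0. Where an arm was left with 1 library, that library was assumed to vary like the other group.

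The members and gene lists were chosen with earlier results of these data known. Genes were named by rule: the 12 largest rises and falls that passed with no overlap between groups, up to 5 called members of each list by adjusted p (or the 2 with the lowest p where none passed), all shade regulators and photoreceptors, the 5 called genes of highest level, the 5 of smallest change, and 5 falling genes of unknown function. Other list members given in ranges were named after their values were seen. A gene counted as called at an adjusted p under 0.05. Names came from RefSeq TAIR10.1, which matched 32835 of 33602 genes. Sequences and coordinates are those of that assembly, since the deposited table holds gene identifiers without positions. The fit was checked on simulated data, where it called 21 of 18337 unchanged genes (0.115%). It also called 38, 50, 26 and 46 of 50 genes each, simulated at log2 changes of 1, 2, -1 and -2. The share of false calls there was above the threshold of 0.05. Some results are not reported here.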

Additional observations from a re-analysis of the deposited data

Results flagged for a closer look

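Only *KAT1* and *DOT1* passed the test for a difference between the 1 hour and the 4 hour shade response (limma, interaction contrast, all 8 libraries, 2 of 18537 genes). Missing the threshold does not show an equal response at both times. The change of *MAKR6*, for one, was -2.78 (SE 0.46, adjusted p = 0.0809). The response of *KAT1*, the guard cell potassium channel gene, was 2.83 on the log2 scale at 1 hour and 0.26 at 4 hours, a change of -2.57 (SE 0.29, adjusted p = 0.0101). Both sun libraries at 4 hours lay close to the shade libraries of that time (17.42 and 15.2 CPM against 22.3 and 17.44 CPM), while the groups were far apart at 1 hour. *DOT1*, the glycine-rich protein gene of vein patterning, changed from -1.10 at 1 hour to 1.23 at 4 hours, by 2.33 (SE 0.31, adjusted p = 0.0356). Its sun level also differed between the times, 43.3 and 43.8 CPM at 1 hour and 9.48 and 8.31 CPM at 4 hours.

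Both calls depended on single libraries. The difference of *KAT1* lay between -2.74 and -2.40 without each of the 8 libraries, with an adjusted p between 0.000474 and 0.371, and 6 of the 8 ended the call. That of *DOT1* lay between 2.14 and 2.52, with an adjusted p between 0.00572 and 0.499, and 6 of the 8 ended it, as did the replicate block (adjusted p = 0.0538).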

How the results depend on the processing

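Of the 194 calls at 1 hour, 97 remained with all 8 libraries in 1 model, and no other gene was added. At an adjusted p under 0.001 there were 63. An edgeR exact test with 1 common dispersion called 355 (191 shared), and with it 25.9% of calls were lower in shade against 12.4%. Leaving out one library gave 176 to 497 calls (138 to 176 shared), and the share of lower calls then ran from 11.9% to 38.6%. The other settings gave between 133 (DESeq2) and 199 (a pseudocount of 5) calls, and the edgeR quasi-likelihood test gave 193, of which 186 were shared. A replicate block gave 362 calls, all 194 among them, and 25.4% lower. The correlation of same-numbered libraries was 0.108 over 2 pairs, and no label states what a number shares, so the pairing was not taken as given. Of 147 named genes, none of those called changed direction under any alternative, and *EDS5*, *PHYC*, *PHOT2* and *PHYE*, which were not called, changed sign near 0. The model with 8 libraries lost 46 of their calls, quantile normalization 27 and DESeq2 23. The cause was not tested. Counts of called members moved over 1.5 times in 20 of 51 lists with 8 libraries and in 18 with the block. At 10 CPM counting error alone is 14.7% to 17.0%, which limits what can be called among low genes.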
